A study of Mus musculus with 12 samples.

Results

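Miox, Fxyd2 and Cldn2 are 3 genes of the kidney tubule, and they were measured here in newborn mouse kidney cells sorted for Six2 expression, as 3 of the 26699 loci of the table. Each locus was the sum of the transcripts that overlap on one strand. The 3 loci were set by position on the plus strand of mm9, Miox (uc007xgc.1) at chr15:89164903-89167438, Fxyd2 (uc009pfu.1) at chr9:45207791-45218361 and Cldn2 (uc009ukl.2) at chrX:136335346-136345927, after earlier results of the same libraries were known, so their levels and differences in all comparisons of the 4 groups are a description with no test. The file does not pair its identifiers with gene names. The names rest on the position, and each locus lay on the chromosome of its gene in RefSeq with a span that was equal to RefSeq's for Miox (2535 bases) and Fxyd2 (10570 bases) and was 10581 against 10579 bases for Cldn2.

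There were 12 libraries, with 4 mutant low, 4 control low, 2 mutant high and 2 control high samples, all from postnatal day 0. All 4 groups carried the R26R-tdTomato reporter construct, were sorted by FACS for Six2-expressing cells and are called fetal kidney cells, and RNA was amplified with SMART-Seq v4. The titles give the genotype only as control or mutant and the sort only as high or low expression, and which signal was high or low is not stated. Eed, a core subunit of the Polycomb repressive complex that methylates histone H3 at lysine 27, stands in the title of the series and in no sample label. The sample descriptions carry the same prefix in mutant and control samples, so the genotype rests on the titles. The allele, the driver of any deletion and whether each sample came from a separate animal are not stated here. The mutant low, control low and mutant high groups each held libraries with more than 100 chromosome Y fragments and libraries with at most 2. Replicates in these groups therefore did not all come from the same animal, although part of the spread between replicates may still be technical. For control high cells this is not known. Eed, Six2 and cell type markers were not checked, because no table pairs names with these identifiers.

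Miox encodes myo-inositol oxygenase, which opens the ring of myo-inositol in the first step of its breakdown, and it is known as an enzyme of the proximal tubule. Fxyd2 encodes the gamma subunit of the Na,K-ATPase, a small membrane protein of the FXYD family that tunes the pump along the tubule. Cldn2 encodes claudin-2, which forms a pore for cations and water between neighbouring cells in the tight junctions of the proximal tubule. Six2 is the transcription factor that keeps nephron progenitors from differentiating, and tubule cells arise from these progenitors.

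Regions around the start sites are shown as background, and whether they bear on the levels of Miox, Fxyd2 and Cldn2 was not tested. Only those of Miox and Cldn2 are given, since no such window was available for Fxyd2. They are RefSeq's 300 bases on the plus strand of GRCm38.p6, from 250 before to 50 after the start site, and differ in build from the mm9 positions of the table. Capitals mark matches on either strand to the letters GTTAAT, part of the site of the HNF1 tubule factors, AGGTCA, the core bound by many nuclear receptors, and TATAAA, the TATA box.
Miox, chr15:89334223-89334522: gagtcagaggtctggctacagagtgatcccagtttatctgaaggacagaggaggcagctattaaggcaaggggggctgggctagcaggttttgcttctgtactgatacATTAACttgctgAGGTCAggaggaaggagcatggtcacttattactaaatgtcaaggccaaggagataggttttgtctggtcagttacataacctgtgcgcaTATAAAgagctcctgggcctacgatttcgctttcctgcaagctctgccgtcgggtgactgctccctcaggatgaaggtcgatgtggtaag
Cldn2, chrX:139800558-139800857: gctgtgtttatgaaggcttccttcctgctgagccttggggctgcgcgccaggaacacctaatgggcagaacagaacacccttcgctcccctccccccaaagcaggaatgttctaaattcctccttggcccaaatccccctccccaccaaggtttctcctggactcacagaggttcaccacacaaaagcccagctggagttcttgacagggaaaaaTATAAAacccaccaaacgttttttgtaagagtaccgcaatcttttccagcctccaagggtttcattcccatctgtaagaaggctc
Miox held GTTAAT on the minus strand, printed as ATTAAC, at position -142, AGGTCA at -130 and TATAAA at -40, counted from the start site. Cldn2 held TATAAA at -35 and neither of the other letters in this window, and no matches overlapped. Of 32851 RefSeq windows of the same length, 7.10% held GTTAAT, 16.3% held AGGTCA and 13.6% held TATAAA. A match of letters does not show binding.

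A coding sequence of Fxyd2 is shown because the codons for Phe-Glu-Tyr-Asp, in capitals at bases 49 to 60, carry the motif that names its family. It is 192 bases of a GENCODE transcript on the plus strand of GRCm38, whose span of 7141 bases equals that of the deposited transcript uc009pfu.1. No coding sequence is given for the deposited transcript uc009pfv.1, which had 27.9% or more of the Fxyd2 fragments in each high library.
Fxyd2, chr9:45403138-45410278: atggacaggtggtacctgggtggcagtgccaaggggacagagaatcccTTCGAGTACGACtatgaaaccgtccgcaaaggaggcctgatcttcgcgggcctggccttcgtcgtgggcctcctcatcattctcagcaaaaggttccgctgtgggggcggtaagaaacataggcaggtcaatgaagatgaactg

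The libraries held between 4549011 and 12365078 fragments. Both extremes were control samples, the control high 2 library and the control low 4 library. The 2 control high libraries had 4.51% and 10.3% of their fragments from the mitochondrial chromosome, against 0.494% to 1.96% in the other 10 libraries. More than 100 fragments from chromosome Y were counted in mutant low replicates 2, 3 and 4, control low replicates 1 and 4 and mutant high replicate 2, and in neither control high library. All 3 genes passed the filter on low counts. No locus on the other strand overlapped them.

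Miox was lowest in mutant low cells and highest in control high cells. Its levels were 4.73, 3.51, 2.56 and 1.30 CPM (counts scaled to library size) in mutant low replicates 1 to 4, against 155.5, 151.5, 22.7 and 60.5 CPM in the control low replicates. The 2 groups did not overlap, and the control low replicates spread by more than the mutant ones. The counts behind these values were 16 to 41 fragments per mutant low library, against 210 to 1330 per control low library. In high cells Miox had 142 and 243 CPM in the mutant replicates, against 4718 and 3886 CPM in the control replicates. Both mutant high libraries were far below both control high libraries, and the lower of them was also below the 2 highest control low libraries.

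Fxyd2 had the same order of groups, and its replicates spread widely in both low groups. It had 15.7, 0.762, 7.11 and 2.19 CPM in mutant low replicates 1 to 4, against 134, 414, 23.5 and 30.1 CPM in the control low replicates. The 2 groups did not overlap, although the highest mutant library came near the lowest control library. The second mutant low library held 5 Fxyd2 fragments, and the second control low library held 3048. In high cells Fxyd2 had 2211 and 933 CPM in the mutant replicates, against 7088 and 13284 CPM in the control replicates. Both mutant high libraries lay below both control high libraries and above all 4 control low libraries.

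Cldn2 was nearly without fragments in mutant low cells. Mutant low replicates 1 to 4 had 0.808, 0, 0.222 and 0.162 CPM, which came from 7, 0, 2 and 2 fragments, against 10.2, 16.2, 5.73 and 8.04 CPM in control low replicates from 87, 119, 53 and 98 fragments. The groups did not overlap, and the count of 0 in the second mutant low library allows a level of up to 0.457 CPM, from 3 counts and for counting error only. In high cells Cldn2 had 169 and 145 CPM in the mutant replicates, against 803 and 637 CPM in the control replicates. Of the 3 genes, Cldn2 in mutant high cells was the most even between its replicates.

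**Figure D1:**
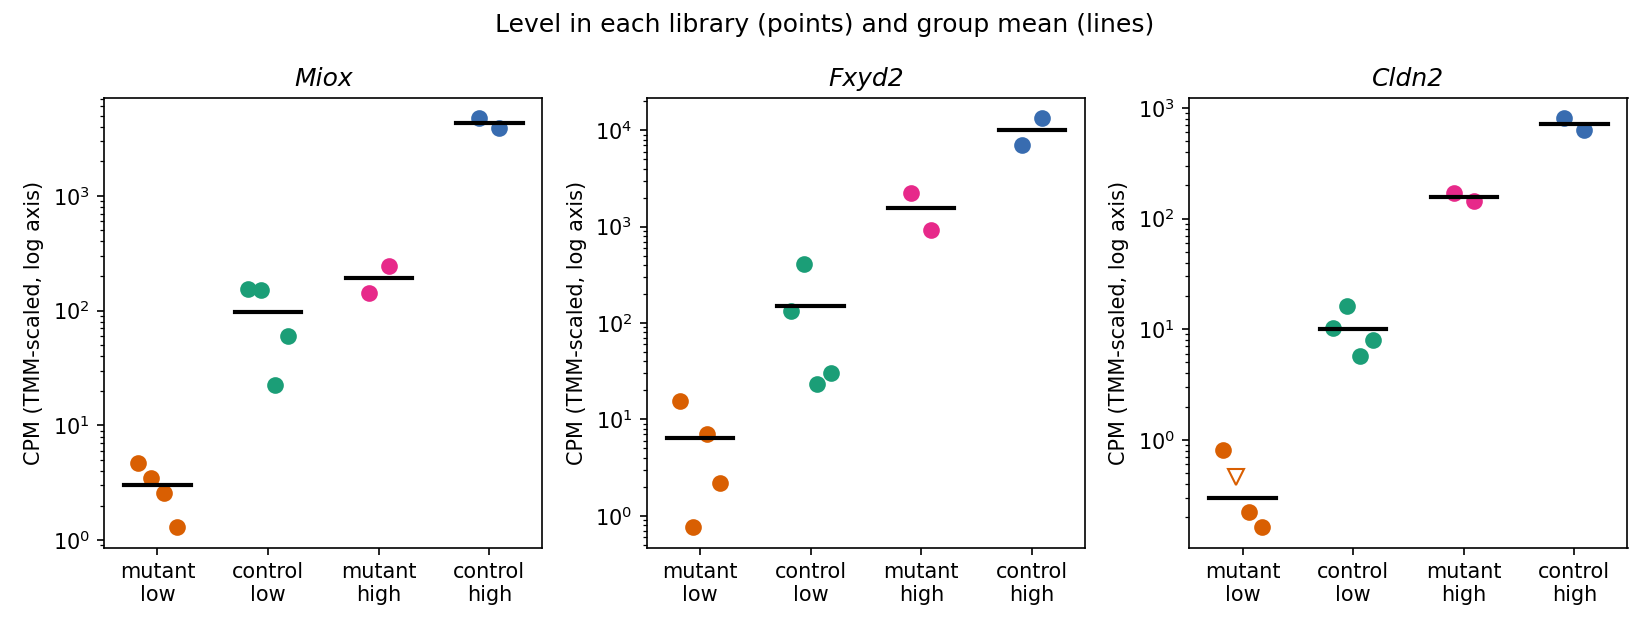
Level of Miox, Fxyd2 and Cldn2 in each of the 12 libraries, in CPM on a log axis, by group; points are libraries, lines are group means, and an open triangle marks the limit of a count of 0. The groups stand in 1 order for all 3 genes, and the ranges of neighbouring groups overlap for Miox between control low and mutant high cells.

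The order of the levels was mutant low, control low, mutant high and control high for each gene. Neighbouring groups in this order overlapped in 1 of 9 cases, Miox in control low and mutant high cells. The share over all loci was not computed, and nothing is read from this count, because the genes were chosen with these levels known. Miox averaged 3.02 ± 1.45 CPM in mutant low cells, 97.6 ± 66.5 in control low cells (SD, n = 4 each), 193 ± 71.3 in mutant high cells and 4302 ± 588 in control high cells (SD, n = 2 each). Fxyd2 averaged 6.44 ± 6.75, 150 ± 183, 1572 ± 904 and 10186 ± 4381 CPM in the same 4 groups. Cldn2 averaged 0.298 ± 0.353, 10.03 ± 4.48, 157 ± 17.2 and 720 ± 117 CPM. CPM are not adjusted for length, so levels are set side by side here within a gene and not between genes.

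Mutant high cells had 4.48% of the control high mean for Miox, 15.4% for Fxyd2 and 21.8% for Cldn2. In low cells the shares were close to each other across genes, at 0.0703%, 0.0632% and 0.0414% of that same control high mean in mutant low cells, against 2.27%, 1.48% and 1.39% in control low cells for Miox, Fxyd2 and Cldn2. In RNA from many cells, a smaller share of cells that express a gene and less of its RNA per cell cannot be told apart.

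All 3 genes were lower in mutant low than in control low cells, by 23.2 to 32.7 times in the fitted values. The log2 fold change was -5.03 (SE 0.63) for Miox, -4.54 (SE 1.18) for Fxyd2 and -4.98 (SE 0.52) for Cldn2, and they stood 13th, 21st and 15th from the bottom of 13749 loci. All 3 had an adjusted p under 0.05 in edgeR's quasi-likelihood test, where 3.21% of all loci were called lower and 8.03% in either direction. Nothing is read from that count, because the genes were chosen with these differences known. The median over all loci was -0.06, with 90% of loci between -1.31 and 1.24. The Fxyd2 call was lost in 16 of 23 alternative settings, among them those without mutant low replicates 2, 3 or 4, control low replicates 1 or 2 or any high library, and without control low replicate 2 its log2 fold change was -3.27. Without mutant low replicate 1, Fxyd2 stood at -5.47 and Cldn2 at -5.98.

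In high cells the mutant libraries of all 3 genes were also below the control libraries. Whether the genes differ from each other in the size of the change was not tested. The log2 fold change of mutant high against control high cells was -4.48 (SE 0.84) for Miox, -2.70 (SE 1.50) for Fxyd2 and -2.20 (SE 0.50) for Cldn2, where the median over all loci was 0.08 with 90% between -2.09 and 2.95. Miox and Cldn2 were called and Fxyd2 was not, against 11.2% of all loci called lower and 27.5% called in either direction. As in low cells, nothing is read from these calls, because the genes were chosen with these differences known. With 2 libraries a group, these values rest on a spread shared with the low groups. The control high libraries also had the highest mitochondrial shares, 4.51% and 10.3%, whose part in these differences was not tested. The Cldn2 call was lost without mutant high replicate 2, where its log2 fold change was -2.07. The mutant high libraries differed in chromosome Y fragments while both control high libraries had almost none, and Cldn2 is on chromosome X. With the presence of chromosome Y fragments in the fit, the Cldn2 change was -1.95 in high cells and -4.90 in low cells, and the Fxyd2 change was -2.0 in high cells and -4.29 in low cells. Without mutant high replicate 1, the Fxyd2 change in high cells was -3.43.

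**Figure D2:**
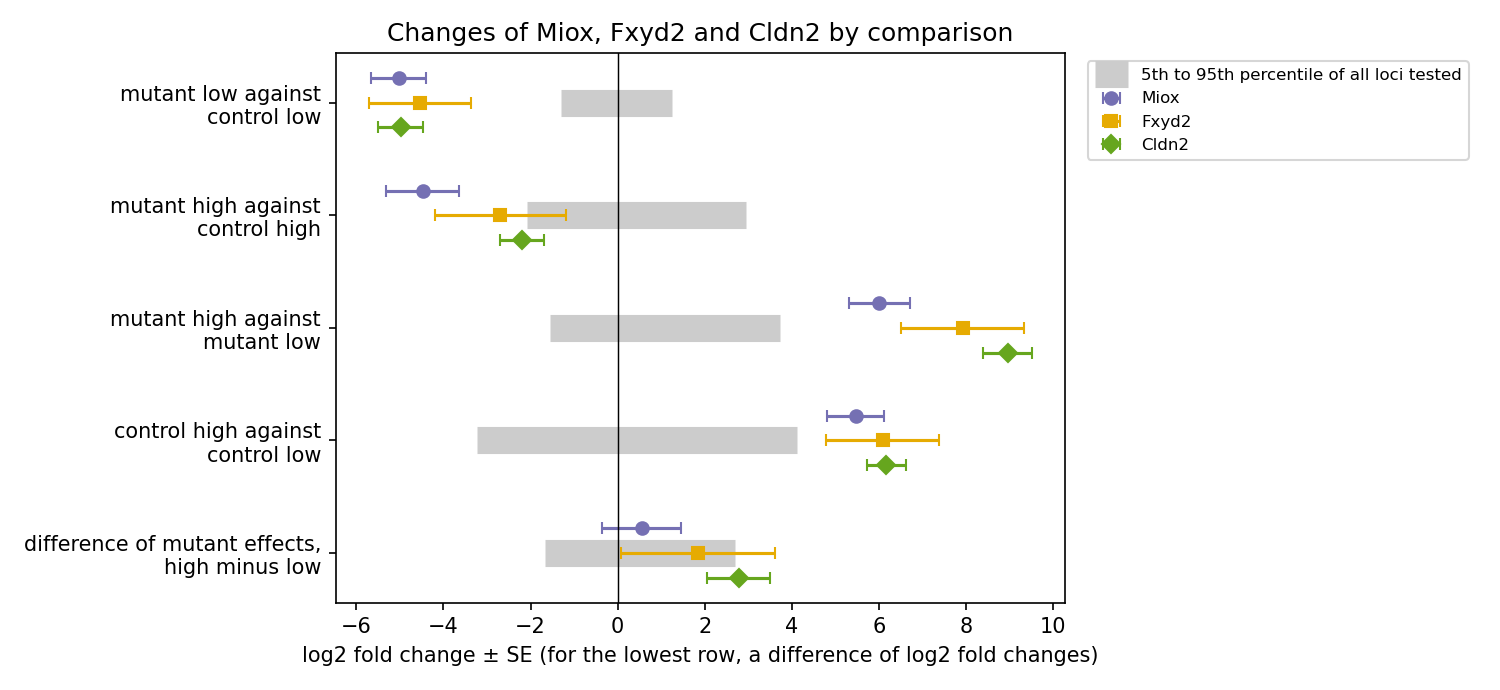
Log2 fold change of Miox, Fxyd2 and Cldn2 in the mutant comparison within low and within high cells, and in the high against low comparison within each genotype; points are fitted values, error bars are 1 SE, the bottom row is the difference of the mutant changes, and grey bars span the 5th to 95th percentile of all loci tested. The mutant changes lie near -5 for all 3 genes in low cells and between -4.48 and -2.20 in high cells.

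The fitted change in mutant cells was smaller in high than in low cells for all 3 genes, although the sign turned for Miox with the 8 libraries whose description number occurs in both sorts and for Miox and Fxyd2 with low libraries numbered above 7. The difference of the mutant changes, high minus low, was 2.78 (SE 0.73) on the log2 scale for Cldn2, 1.84 (SE 1.77) for Fxyd2 and 0.55 (SE 0.91) for Miox. The value was under the adjusted p of 0.05 for Cldn2 and not for Fxyd2 or Miox, where 10.3% of all loci were called in either direction and the median was 0.15, and nothing is read from that count. Whether the genes differ from each other in this value was not tested. For Fxyd2 the value was 2.75 when mutant low replicate 1 was left out, 0.57 for control low replicate 2 and 1.09 for mutant high replicate 1. The Cldn2 call was lost in 9 of 23 settings, among them those without mutant low replicate 3 or 4 or without any 1 of the 4 high libraries, while its value stayed between 2.35 and 3.76, the highest being the one that leaves out mutant low replicate 1. Cldn2 in mutant low cells rests on 11 fragments in 4 libraries, so the size of its change there depends on few counts.

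High cells held more of each gene than low cells within both genotypes. In mutant cells the log2 fold change of high against low was 6.01 (SE 0.69) for Miox, 7.92 (SE 1.41) for Fxyd2 and 8.95 (SE 0.56) for Cldn2, and Cldn2 stood 7th from the top of 13749 loci. In control cells it was 5.46 (SE 0.66) for Miox, 6.08 (SE 1.30) for Fxyd2 and 6.17 (SE 0.45) for Cldn2. All 3 were called higher in both genotypes, where 19.0% of loci were called higher and 32.2% in either direction in mutant cells, against 25.3% and 52.3% in control cells. Nothing is read from these counts. Fxyd2 was not called with the 8 libraries whose description number occurs in both sorts, at adjusted p = 0.062 in mutant and 0.067 in control cells (edgeR), nor with that number as a block, at adjusted p = 0.13 in both. The medians over all loci were -0.03 in mutant and -0.13 in control cells. Both the mutant and the high against low comparisons use the same 4 groups, so these values are not independent of each other. Without mutant low replicate 1, Cldn2 stood at 9.96 and Fxyd2 at 8.85 in mutant cells, and without control low replicate 2, Fxyd2 stood at 7.35 in control cells. Without mutant high replicate 1, Fxyd2 stood at 7.17 in mutant cells.

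Some low and high samples share a number in their descriptions, and in these pairs the low cells had a small share of the high level in each case. For number 5, mutant low replicate 1 had 3.32% of the Miox level of mutant high replicate 1, 0.710% of its Fxyd2 level and 0.477% of its Cldn2 level. For number 7, in mutant replicates 2, the shares were 1.44%, 0.0817% and 0%. For number 6, control low replicate 2 had 3.21%, 5.84% and 2.01% of control high replicate 1. For number 8, control low replicate 3 had 0.584%, 0.177% and 0.899% of control high replicate 2. What the numbers stand for is not given.

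In control low cells, the libraries with description numbers up to 7 were above those numbered above 7 for all 3 genes. Control low cells averaged 153.5 CPM of Miox with numbers up to 7 against 41.6 CPM above 7, 274 against 26.8 CPM of Fxyd2, and 13.2 against 6.89 CPM of Cldn2. Mutant low cells averaged 4.12 against 1.93 CPM of Miox, and both lower-numbered libraries were above both others. Their means of 8.23 against 4.65 CPM for Fxyd2 and 0.404 against 0.192 CPM for Cldn2 rest on mutant low replicate 1. The other mutant low library numbered up to 7 had 0.762 CPM of Fxyd2 and 0 CPM of Cldn2, below both libraries numbered above 7. With numbers up to 7, the log2 fold change of mutant low against control low cells was -5.20 for Miox, -5.02 for Fxyd2 and -4.81 for Cldn2. With numbers above 7 it was -4.43, -2.53 and -5.07. The Fxyd2 value thus differed between the number ranges by more than the other two, with 2 libraries per genotype in each.

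Counted against each other within a library, the genes were not in a fixed proportion. Cldn2 had 1.19 and 0.596 fragments per Miox fragment in mutant high libraries, against 0.170 and 0.164 in control high libraries. In low cells the same ratio was 0.171, 0, 0.0870 and 0.125 in mutant libraries, against 0.0654, 0.107, 0.252 and 0.133 in control libraries. Both mutant high libraries were therefore above all 10 others, whose ranges overlapped. Fxyd2 had 15.5 and 3.83 fragments per Miox fragment in mutant high libraries, against 1.50 and 3.42 in control high libraries. In low cells that ratio was 0.217 to 3.32 in mutant libraries, against 0.498 to 2.73 in control libraries. These ratios use no scaling between libraries. They restate levels that were known when the genes were chosen, so nothing is read from their order. Gene length is the same in each library.

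**Figure D3:**
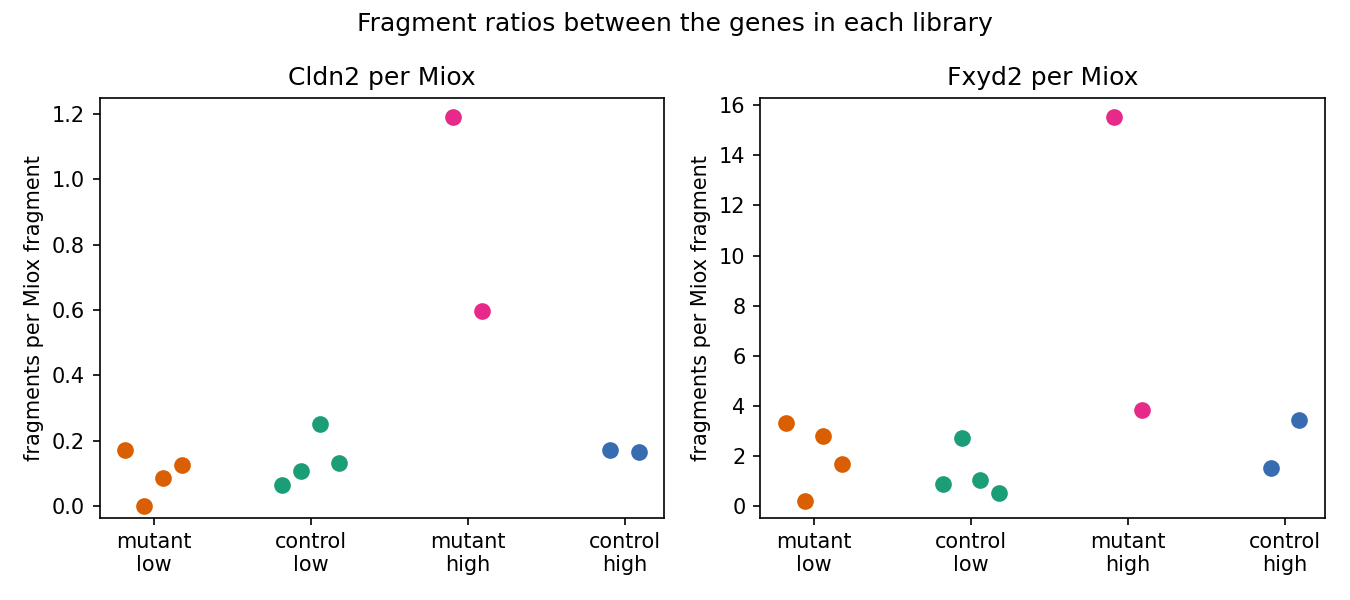
Fragments of Cldn2 and of Fxyd2 per fragment of Miox in each library, by group; points are libraries. Both mutant high libraries lie above all others in both ratios, at 1.19 and 0.596 for Cldn2 and 15.5 and 3.83 for Fxyd2. For Fxyd2 the next highest ratio is 3.42, in control high replicate 2.

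Across the 12 libraries the genes followed each other. Pearson's r of log2(CPM + 0.5) was 0.946 for Miox and Fxyd2, 0.957 for Miox and Cldn2, and 0.977 for Fxyd2 and Cldn2. These values describe 12 libraries that fall into 4 groups. With the group means taken away, r was 0.620, 0.672 and 0.899, so Fxyd2 and Cldn2 also moved together when replicates of all groups were pooled. In control high cells they moved in opposite directions. Fxyd2 had 7088 and 13284 CPM in replicates 1 and 2 there, and Cldn2 had 803 and 637 CPM. Part of the 0.899 rests on mutant low cells, where Cldn2 had 7, 0, 2 and 2 fragments. How many other loci reach such an r with the group means taken away was not examined. For r across the 12 libraries, other loci are counted next.

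Among 10055 loci with a mean of at least 5 CPM, 58 had an r of 0.95 or more with Miox, 96 with Fxyd2 and 232 with Cldn2. The 2 most like Miox were at chr9:119102095-119118223 on the minus strand, with r 0.992, and chr13:62966112-62989596 on the minus strand, with r 0.986. The first of them averaged 0.221 CPM in mutant low, 8.40 in control low, 21.1 in mutant high and 312 in control high cells, and the second 0.247, 8.01, 35.3 and 513 CPM. The 2 most like Fxyd2 were at chr13:55501008-55516056 on the plus strand, with r 0.979, and chr17:43611277-43639722 on the minus strand, with r 0.978. The 2 most like Cldn2 were at chr2:126419403-126444401 on the minus strand, with r 0.995, and chr7:51827814-51842216 on the plus strand, with r 0.993. The first locus for Cldn2 averaged 1.33 CPM in mutant low, 19.1 in control low, 374 in mutant high and 2223 in control high cells. All these positions are in mm9 as deposited.

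Loci next to the 3 genes were not chosen by their values and could be tested. Within 100 kb there were 20 loci, of which 14 passed the filter, 9 near Miox, 2 near Fxyd2 and 3 near Cldn2. In mutant low against control low cells, edgeR's quasi-likelihood test called 2 of the 14, 1 higher and 1 lower, where 8.03% of all loci were called. In mutant high against control high cells it called 4, with 2 in each direction, where 27.5% of all loci were called. High against low cells gave 3 calls in mutant cells, where 32.2% of all loci were called, and 6 in control cells, where 52.3% were. With 14 loci these counts are not set apart from the shares over all loci. The median log2 fold change of the 14 was -0.09 in the mutant comparison of low cells and 0.01 in that of high cells.

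The locus at chr15:89246835-89256293 on the minus strand, 79.4 kb past Miox, followed the order of Miox with smaller differences. It averaged 11.1 ± 1.42 CPM in mutant low and 33.9 ± 19.3 in control low cells (SD, n = 4 each), with 81.8 ± 13.7 in mutant high and 237 ± 61.1 in high control cells (SD, n = 2 each). It fell by 1.61 (log2, SE 0.33, adjusted p = 0.00642, edgeR) in mutant low cells and fell by 1.53 (log2, SE 0.45, adjusted p = 0.0222, edgeR) in mutant high cells. The call in high cells was lost in 5 of 23 settings, among them those without mutant high replicate 1 or 2 or control high replicate 2. The call in low cells was lost in 1, with low libraries numbered up to 7 alone (adjusted p = 0.144, edgeR).

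The nearest locus before Miox had another pattern. At chr15:89153402-89155161 on the plus strand, 9.74 kb away, the means were 1.57 ± 0.673 CPM in mutant low and 0.788 ± 0.501 in control low cells (SD, n = 4 each), with 3.12 ± 0.234 in mutant high and 31.4 ± 8.29 in high control cells (SD, n = 2 each). In mutant high cells it fell by 3.32 (log2, SE 0.54, adjusted p = 0.000618, edgeR), and this call held in all 23 alternatives. In mutant low cells its log2 fold change of 0.97 did not pass the threshold (adjusted p = 0.234, edgeR).

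Between high and low cells, the same pair of loci near Miox moved in the direction of Miox in control cells. The locus 79.4 kb past Miox was higher in high than in low cells by 2.88 (log2, adjusted p = 4.48e-05, edgeR) in mutant cells and by 2.81 (log2, adjusted p = 2.32e-05, edgeR) in control cells. The locus before Miox was higher in high cells by 5.33 (log2, adjusted p = 4.24e-07, edgeR) in control cells, and its value of 1.03 in mutant cells did not pass (adjusted p = 0.107, edgeR). A locus at chr15:89256779-89260358 on the minus strand was higher in high cells by 0.94 (log2, adjusted p = 0.00274, edgeR) in mutant cells and by 0.83 (log2, adjusted p = 0.00343, edgeR) in control cells. In control cells 2 more loci passed in the other direction, at chr15:89186152-89203259 on the plus strand with -0.89 (log2, adjusted p = 0.0108, edgeR) and at chr15:89041989-89116692 on the plus strand with -0.77 (log2, adjusted p = 0.0482, edgeR). The last call was lost in 20 of 24 settings, among them those without any 1 control library.

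The tested neighbours of Fxyd2 did not follow it. The locus at chr9:45234710-45561796 on the plus strand, 16.3 kb past Fxyd2, averaged 3.66 ± 1.19 CPM in mutant low and 1.01 ± 0.824 in control low cells (SD, n = 4 each), with 7.36 ± 2.57 in mutant high and 0.246 ± 0.0534 in high control cells (SD, n = 2 each). It rose by 4.85 (log2, SE 0.95, adjusted p = 0.00206, edgeR) in mutant high cells, a call kept in all 23 alternatives. The control high mean of 0.246 CPM lies below the level of 3 counts in those libraries, so the size of this rise depends on very few fragments. In mutant low cells it rose by 1.83 (log2, SE 0.48, adjusted p = 0.0295, edgeR), a call lost in 9 of 23 settings, among them those without mutant low replicate 1, 3 or 4 or control low replicate 1, 2 or 4. The locus at chr9:45178267-45204242 on the plus strand, 3.55 kb before Fxyd2, averaged 14.3 CPM in mutant low, 28.9 in control low, 3.91 in mutant high and 2.87 in control high cells. It was lower in high than in low cells, by a log2 fold change of -1.86 in mutant cells (adjusted p = 0.0445) and -3.32 in control cells (adjusted p = 0.0022), both from edgeR. The call in mutant cells was lost in 9 of 24 settings, among them those without mutant low replicate 1 or 2 or without any 1 of the 4 high libraries.

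Of the 3 tested neighbours of Cldn2, 1 was called in a comparison. At chrX:136424049-136533134 on the minus strand, 78.1 kb past Cldn2, the log2 fold change of mutant high against control high cells was 0.97 (adjusted p = 0.0495, edgeR), with means of 10.7 and 5.46 CPM. That call was lost in 21 of 23 settings.

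**Figure D4:**
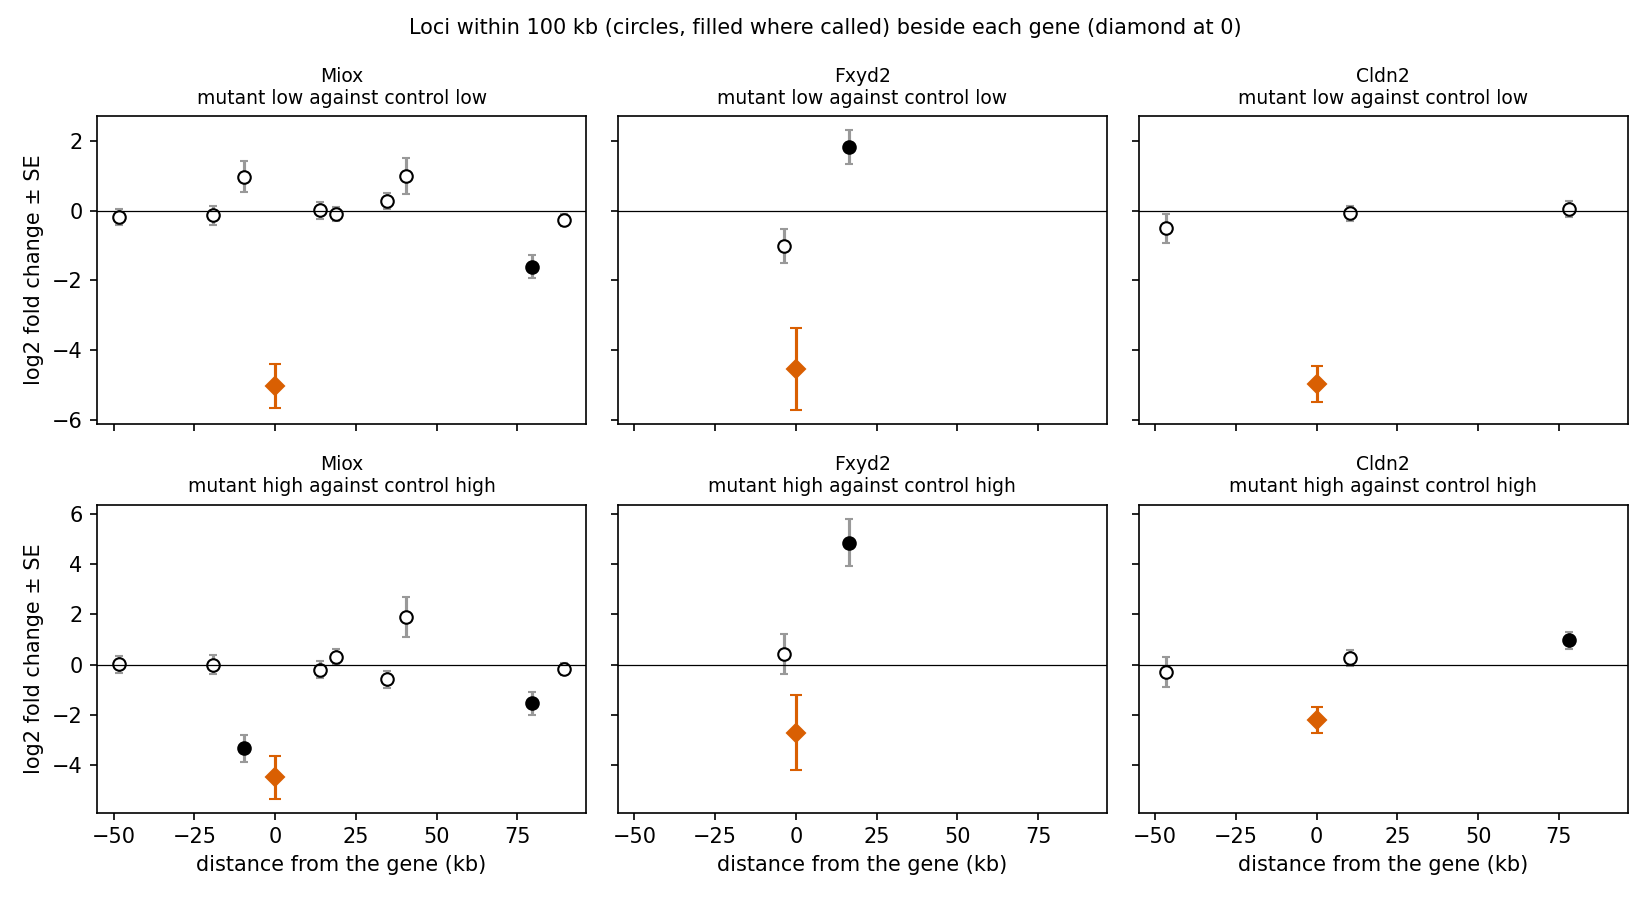
Log2 fold change of mutant against control cells, in low and in high cells, of the loci within 100 kb of Miox, Fxyd2 or Cldn2, by distance from the gene in kb; circles are tested loci, filled where the adjusted p was under 0.05, the diamond at 0 is the gene itself, and error bars are 1 SE. The median of the 14 neighbours was -0.09 in low and 0.01 in high cells.

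Fxyd2 has 3 transcripts in the table, which start at 3 positions and share the end at 45218361. In the low cells, transcript uc009pfu.1, which starts at 45211220, took 99.2%, 100%, 100% and 100% of the Fxyd2 fragments in mutant replicates 1 to 4, against 27.0%, 99.5%, 99.5% and 99.4% in control replicates. A single library, control low replicate 1, stood apart, with 72.9% of its fragments given to uc009pfv.1, which starts at 45214159. In high cells uc009pfu.1 took 71.8% and 45.0% in mutant libraries, against 14.0% and 61.6% in control libraries, and uc009pfv.1 took 27.9% and 54.9% against 85.5% and 36.1%. The third transcript, uc012gsc.1, which starts at 45207791, took at most 2.33% in any library.

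Over low libraries with at least 10 Fxyd2 fragments, the uc009pfu.1 share averaged 99.7% in 3 mutant and 81.3% in 4 control libraries. The difference of 18.4 percentage points had a two-sided p of 0.543 in an exact permutation test over libraries. By the number of relabelings p could reach 0.0286, but control low replicate 1, at 27.0%, sets the size of the difference in each relabeling. The test therefore cannot decide whether the share differs between mutant and control low cells. Fxyd2 was the 1 gene tested this way, as Miox and Cldn2 have 1 transcript each. Without control low replicate 1 the difference was 0.301 percentage points. The mutant low library left out of the test had 5 fragments. How the estimate splits fragments that fit several transcripts is not given, so the shares rest on that estimate.

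**Figure D5:**
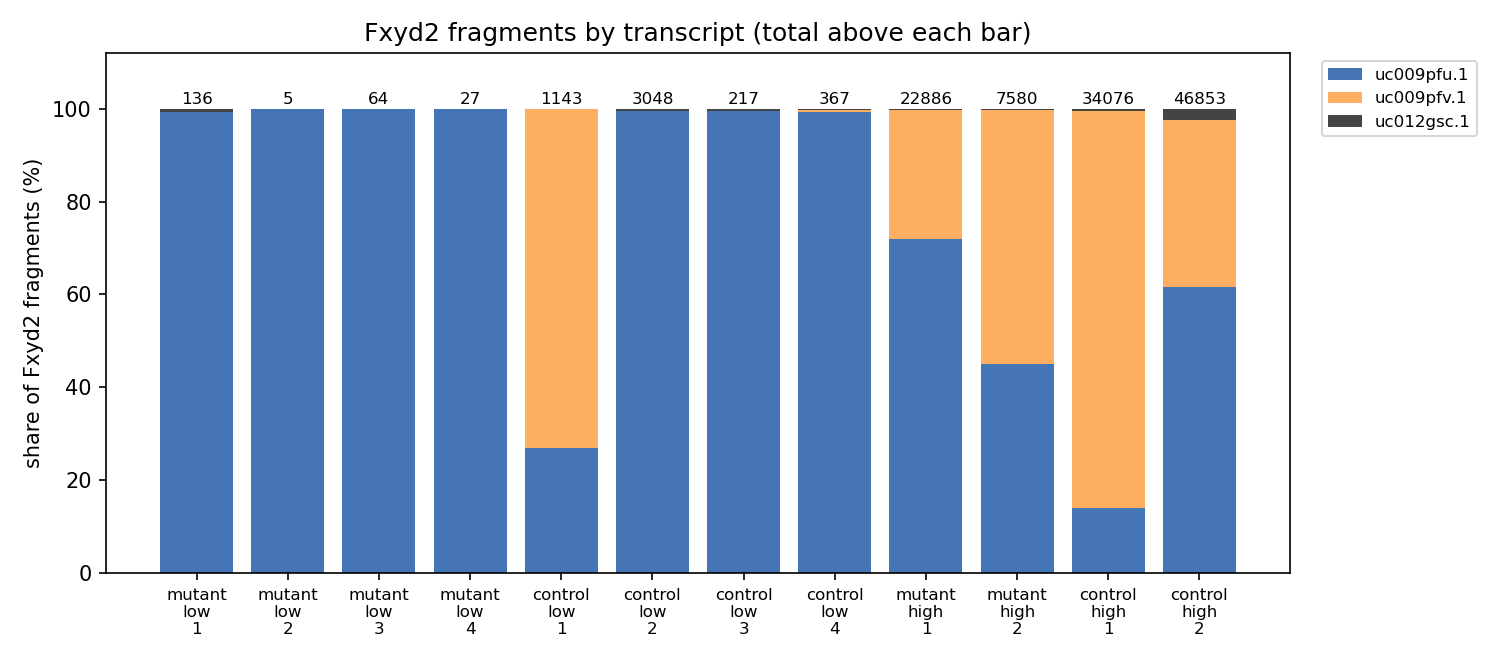
Share of Fxyd2 fragments given to each of its 3 transcripts, in percent, in each library, as stacked bars with the total of fragments above each. uc009pfv.1 has a share of 27.9% or more in all 4 high libraries and in control low replicate 1, and at most 0.336% in the other 7 low libraries.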

How the data were processed

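RNA was measured in 12 libraries, and 1 table gave the estimated count of fragments per transcript, deposited by the authors without normalization. Per the file's title these are raw fragments from CuffDiff2, and per the submitters' processing notes Bowtie2, HTSeq, DESeq2 and mm9 were used, without roles or versions. Settings, strand use and the treatment of multiply aligned fragments are unstated. The 55115 transcripts with a position (303 rows had none and held 0 fragments) were summed into 26699 loci of overlapping transcripts on one strand and rounded. Between 99.6% and 99.9% of locus sums per library were whole within 0.01. Starts count from 0, since end minus start equals RefSeq's length for Miox and Fxyd2, and positions are printed as deposited.

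Groups came from the titles. The members, lists and tests were chosen with earlier results of these data known. The planned lists of cell type markers and pathway genes matched no identifier and gave no result. edgeR 4.0.16 (R 4.3.3) fitted all 12 libraries in 4 groups with TMM scaling, its filter on low counts and a quasi-likelihood test, two-sided, with Benjamini-Hochberg adjustment over 13749 loci and a threshold of 0.05. This test needs whole counts, and the table held estimated counts per transcript, so sums were rounded first. The SE is the log2 fold change divided by the root of the F statistic. CPM use TMM library sizes. Totals of 4549011 to 12365078 fragments limit low values, and a count of 0 allows 3 counts. Genes other than the members were named by rule, as the 2 loci most like each member and the called loci within 100 kb. Alternatives were limma-voom 3.58.1, DESeq2 1.42.0, other filters and samples, and blocks by replicate number.

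Replicate numbers were not taken to pair samples, as reported with the alternatives.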

Additional observations from a re-analysis of the deposited data

Results flagged for a closer look

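The uc009pfu.1 share of Fxyd2 fragments in mutant low cells was 99.2% in replicate 1, far from the 100% of the other 3 libraries relative to their spread, and the uc012gsc.1 share was 0.784% there and 0% in the others, which is about 1 fragment of 136. In control low cells the uc009pfu.1 share of replicate 1 was 27.0%, far from the other 3 libraries at 99.4% to 99.5%, and its uc009pfv.1 share was 72.9%, against at most 0.336%. In total 12 groups of 4 libraries were examined for a library apart from the rest. The rule's chance rate of about 1 in 20 does not hold for shares piled at 0% or 100%. Where the other 3 libraries have the same share, even a stray fragment is flagged. The shares of transcripts within 1 locus are also not independent of each other. The change of Cldn2 in mutant cells differed between high and low cells by 2.78 on the log2 scale, and this difference was part of what was known when the gene was chosen.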

How the results depend on the processing

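The log2 fold changes of Miox, Fxyd2 and Cldn2 kept their sign in the mutant comparisons within low and within high cells and in both high against low comparisons under all alternatives run. The reversals were in the difference of mutant changes, at -0.0953 for Miox with the 8 libraries whose description number occurs in both sorts, -0.0892 for Miox and -0.195 for Fxyd2 with low libraries numbered above 7. Of the 3 genes, the number called in low cells was 3, and 1 with those 8 libraries, where Miox stood at -4.39 and was not called, and 2 to 3 when a replicate was left out. In high cells it was 2, and 1 with each transcript as a feature, and 1 to 2 with a replicate left out. For the difference it was 1, and 0 with the 8 libraries, with low libraries numbered up to 7 and with each transcript as a feature, and 0 to 1 with a replicate left out. Of the 14 neighbouring loci, 2 were called in low cells, and 1 with the 8 libraries, with the compared groups alone or with numbers above 7, and 1 to 2 with a replicate left out. In high cells 4 were called, and 2 with numbers up to 7 or with chromosome Y fragments in the fit, and 2 to 4 with a replicate left out. In mutant high against mutant low cells 3 were called, 5 with numbers above 7, and 2 to 3 with a replicate left out. The isoform difference was 0.301 to 24.5 percentage points with a replicate left out, and -18.3 for uc009pfv.1, opposite by construction as shares add up. The cause of the other changes was not tested. DESeq2 gave no adjusted p for Fxyd2. Fxyd2 was called in high cells with the compared groups alone and with numbers above 7.

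Replicate numbers in the titles were not taken to pair libraries. Deviations of same-numbered libraries correlated at 0.0857, 0.312, 0.0937 and 0.498 in low and -0.0621 in high cells. In high cells, with 2 libraries a group, deviations mirror each other. Both numbers therefore give the same -0.0621 there, and differently numbered libraries its opposite. Differently numbered low libraries were not compared, so the values do not decide whether the numbers pair libraries. With the replicate block 2 genes were called in low cells, where Fxyd2 stood at -3.93 (adjusted p = 0.101, edgeR), and 2, 3, 3 and 1 in high cells, control high against low, mutant high against low and the difference. The block gave 3, 3, 6 and 4 called neighbours in the first 4 comparisons. Description numbers correlated at 0.225, -0.0604, 0.138 and -0.0858, and as a block in the 8 libraries they left Miox and Cldn2 called, and Fxyd2 not, in each high against low comparison, as did the 8 libraries without the block. Depth limits Cldn2 in mutant low cells most, with 11 fragments in all.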
